A study of Mus musculus with 6 samples.

Results

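The genes described here are the motors that move cargo along axonal microtubules and their close relatives. They comprise 62 of the 53858 genes in the count table. They were chosen by a rule on gene symbols, which takes every kinesin written *Kif* and a number, the kinesin partner *Kifap3*, the kinesin light chains, the subunits of cytoplasmic dynein 1 and of dynactin, the dynein light chains *Dynll* and *Dynlt*, and *Pafah1b1*. By role, 15 are transport kinesins, 5 are accessory kinesin subunits, 12 are dynein subunits and 7 are dynactin subunits or Lis1. The remaining kinesins are 12 mitotic, 6 ciliary or centriolar and 5 others. RNA was sequenced from wild-type mouse spinal cord motor neurons on day 6 after the sciatic nerve had been crushed, so every neuron in the study came from an injured animal. The double-labelled pools held neurons with DiO and DiI, and the DiO-only pools held neurons with DiO and no DiI. DiO is a lipophilic tracer that was given on day 0 at the proximal site and fills injured motor neurons. DiI, a red tracer, was given at the distal site on day 2 and marks neurons whose axons had arrived there first. Each group had 3 pools of 10 to 15 picked cells. The labels do not state that pools came from separate animals, and p-values therefore measure only the spread between these pools, which may be technical.

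Kinesins and dynein are ATP-driven motors that walk on microtubules. In axons the microtubules point with their plus ends outward, so most transport kinesins carry vesicles, mitochondria and tubulin or neurofilament cargo away from the cell body, while dynein with its activator dynactin returns signalling endosomes, injury signals and old organelles to it. Motor neurons depend on both, and in humans variants of *KIF5A*, *DYNC1H1* and *DCTN1* cause diseases of motor neurons or long axons. Mitotic kinesins instead organise the spindle of dividing cells.

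Most motors can be read gene by gene, but the small light chains of dynein come in copies, and their coding sequences show which ones can be separated. The sequences below are from GENCODE M21 transcripts (GRCm38, also called mm10), 5′ to 3′ on the coding strand. The first pair is the whole coding sequence of *Dynll1* (chromosome 5, 115297110 to 115300999, minus strand) and *Dynll2* (chromosome 11, 87979525 to 87987533, minus strand), LC8 light chains that dimerise at the base of dynein. Capitals mark the 51 of 270 bases at which *Dynll2* differs from *Dynll1*.
Dynll1: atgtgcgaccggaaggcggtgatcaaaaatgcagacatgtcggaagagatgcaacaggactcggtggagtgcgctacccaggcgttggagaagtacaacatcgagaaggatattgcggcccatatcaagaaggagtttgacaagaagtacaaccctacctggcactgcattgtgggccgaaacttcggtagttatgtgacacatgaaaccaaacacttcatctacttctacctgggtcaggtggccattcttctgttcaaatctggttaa
Dynll2: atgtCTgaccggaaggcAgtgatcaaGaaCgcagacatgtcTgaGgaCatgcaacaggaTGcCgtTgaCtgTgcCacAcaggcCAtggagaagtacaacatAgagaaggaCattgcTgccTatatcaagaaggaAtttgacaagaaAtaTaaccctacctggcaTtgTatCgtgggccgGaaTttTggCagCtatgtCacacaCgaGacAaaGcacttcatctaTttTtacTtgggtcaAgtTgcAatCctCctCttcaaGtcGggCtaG
The second set is the first 60 bases of the coding sequence of the 4 *Dynlt1* copies on chromosome 17, which encode a Tctex-type light chain. Capitals mark bases that differ from *Dynlt1b*.
Dynlt1a: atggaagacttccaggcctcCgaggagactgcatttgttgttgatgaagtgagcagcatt
Dynlt1b: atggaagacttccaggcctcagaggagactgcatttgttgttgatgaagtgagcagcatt
Dynlt1c: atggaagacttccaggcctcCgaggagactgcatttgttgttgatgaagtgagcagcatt
Dynlt1f: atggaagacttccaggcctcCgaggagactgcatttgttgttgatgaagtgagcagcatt
Over all 342 coding bases, *Dynlt1a*, *Dynlt1c* and *Dynlt1f* were identical and *Dynlt1b* differed from them at 1 base. Of the windows of 50 bases in their transcripts, 63.0 to 88.6% also occurred in another gene, so the counts of the single copies are uncertain. The corresponding share was 3.1% for *Dynll1*. Larger paralogues were far apart, with coding identities of 66.4 to 73.2% among *Kif5a*, *Kif5b* and *Kif5c*.

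Total counts were 2997714 to 6563403 in double-labelled pools and 3747145 to 6505086 in DiO-only pools, and 3 counts corresponded to 0.402 to 1.10 CPM. CPM here means the read count of a gene divided by the total count of its library, with that total corrected by a TMM factor. All 7 motor neuron markers, *Chat* and *Isl1* among them, passed the filter on low counts. Glia were present too. The 8 oligodendrocyte markers all had log2 fold changes above 0, 6 of them at an unadjusted p under 0.05 and 0 at an adjusted p under 0.05 in edgeR. Over all tested genes 5.81% reached that unadjusted p, and 3.18% did so while higher in double-labelled pools. The groups overlapped for *Mag* and *Cldn11*, which were both highest in double-labelled pool 2. The 8 markers summed to 1432 to 4886 CPM in double-labelled pools, against 278 to 570.1 CPM in DiO-only pools. Of 7 tested astrocyte markers 5 were higher, 4 had an unadjusted p under 0.05 and 0 an adjusted p under 0.05 in edgeR. Their sums were 565 to 725 CPM in double-labelled pools and 292 to 942 CPM in DiO-only pools. Most of each sum but that of double-labelled pool 3 was *S100b*, at 345 to 594 CPM in double-labelled pools and 236 to 907 CPM in DiO-only pools, which was not among those 4. Microglial sums were 21.2 to 65.8 CPM in double-labelled pools and 44.0 to 54.8 CPM in DiO-only pools. The interneuron list summed to 4.76 to 23.6 CPM in double-labelled pools and 9.35 to 115 CPM in DiO-only pools, with *Pax2* and *Lmx1b* at 0 in most libraries. The high sums came mainly from *Slc17a6* at 62.6 CPM in DiO-only pool 1 and *Slc6a5* at 92.4 CPM in DiO-only pool 3. Endothelial markers summed to at most 1.46 CPM in double-labelled pools and 25.6 CPM in DiO-only pools. The part of these cells in the motor results was not tested, and in pools fewer cells of a type and less RNA per cell cannot be told apart.

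Setting the double-labelled pools against the DiO-only pools asks which motor transcripts differ between motor neurons that had regrown early to the distal site and injured neurons without the distal dye. No motor transcript passed the test. The heavy chains of kinesin-1 and dynein and the kinesin-3 motors *Kif1a* and *Kif1b* had overlapping groups, while the kinesin-2 subunit *Kif3c* was lower in double-labelled pools without overlap and did not reach the threshold. Of the 45 motor genes with enough counts for the test, 0 passed in edgeR's quasi-likelihood test at an adjusted p of 0.05, where 0 of all 12954 tested genes (0%) passed. At an unadjusted p under 0.05 there were 0 motor genes, where 753 genes (5.81%) reached it over the whole table, 3.18% higher and 2.63% lower. DESeq2, run without the filter on low counts, called 75 of the 28406 genes with a p-value. Its own default filter on mean count applied at adjustment. Without the filter on low counts edgeR called 79 of 28513. Limma voom with quality weights, run on the filtered genes, called 0. All of these called 0 motor genes. The groups did not overlap for 3 of the 45, all lower in double-labelled pools, where groups did not overlap for 12.9% of all tested genes and were lower without overlap for 7.07%. Of the 45, 24 were higher and 21 lower, with a median log2 fold change of 0.07. Over all tested genes the median was 0.02, with 48.7% below 0.

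**Figure D1:**
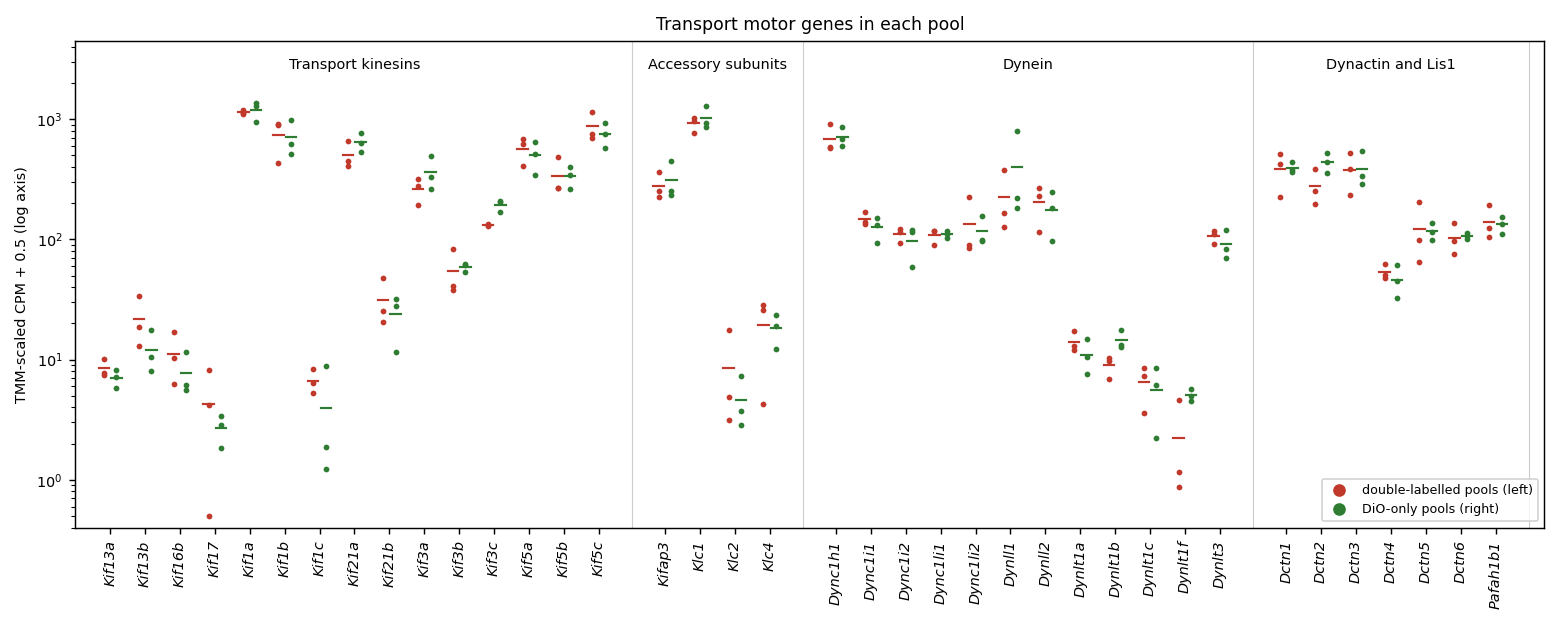
TMM-scaled CPM plus 0.5 (log axis) of the tested transport motor genes in each pool, double-labelled pools to the left in red and DiO-only pools to the right in green, with horizontal bars at the group means. The groups overlap for all genes drawn but *Kif3c* and *Dynlt1b*, which were lower in double-labelled pools.

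How large a difference these data could hide is given by the intervals. For the 26 motor genes with a mean of at least 50 CPM, the median standard error of the log2 fold change was 0.34, and the 95% interval held 0 for all 26. The interval lay within a 2-fold change in either direction for 18 of them and within a 4-fold change for 25. *Dynll1* was the exception, with an interval down to -2.11. The median size of the log2 fold change was 0.17 for these 26 genes and 0.28 for all 3360 tested genes at that level, of which 7.98% had an unadjusted p under 0.05. Pools of the same group were about as far apart for the motors as for other genes. The median SD of log2 CPM between pools was 0.42 for the motors and 0.46 for all genes at that level in double-labelled pools, and 0.33 and 0.34 in DiO-only pools. The 19 tested motor genes of lower level had a median standard error of 0.73, against 0.71 for all 9594 tested genes under 50 CPM. Their median size of the log2 fold change was 0.70, against 0.50 for all genes at that lower level. The motors were thus on the smaller side at the higher level and on the larger side at the lower one. Among the 19 motors the standard error ran from 0.37 for *Dctn4* to 1.64 for *Kif15*.

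**Figure D2:**
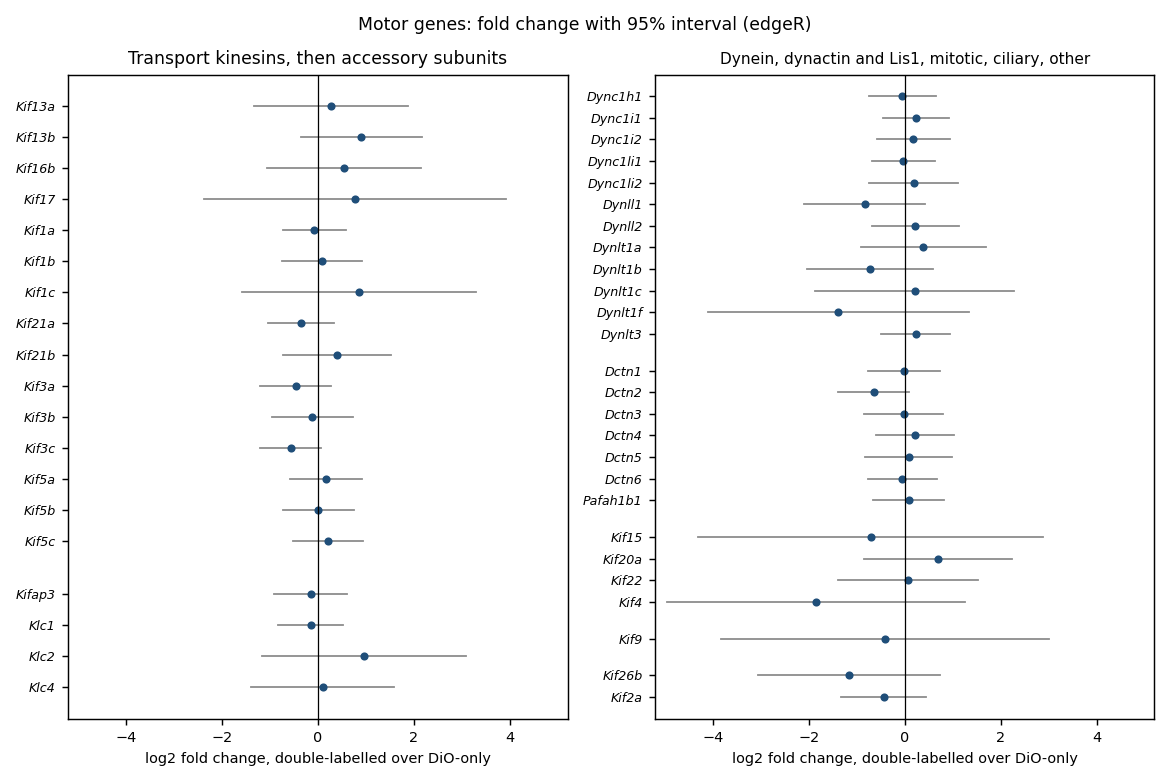
The log2 fold change of each tested motor gene, double-labelled over DiO-only pools, as a point with its 95% interval from the edgeR fit (horizontal axis), grouped by role down the page. Each of the 45 intervals crosses 0, and the intervals of low genes such as *Kif4* and *Kif17* are several units wide.

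Kinesin-1 is the main motor of fast and slow anterograde transport. Its heavy chains *Kif5a* (ENSMUSG00000074657; chromosome 10, 127225696 to 127263348, minus strand), *Kif5b* and *Kif5c* (ENSMUSG00000026764; chromosome 2, 49619298 to 49774778, plus strand) did not separate the groups. *Kif5a* stood at 616, 688 and 407 CPM in double-labelled pools 1, 2 and 3, against 518, 651 and 344 CPM in DiO-only pools 1, 2 and 3. For *Kif5c* the values were 1147, 759 and 704 CPM in double-labelled pools 1, 2 and 3, against 932, 758 and 571 CPM in DiO-only pools 1, 2 and 3. The groups overlapped for both genes, and double-labelled pool 1 was the highest library for *Kif5c*. *Kif5b* averaged 339 ± 127 CPM in double-labelled pools and 337 ± 70.9 CPM in DiO-only pools (SD, n = 3 each). *Kif5a* had a log2 fold change of 0.18 ± 0.34 (SE; 95% interval -0.57 to 0.93; edgeR adjusted p = 0.987). On the log2 scale *Kif5c* differed by 0.21 ± 0.33 (SE; 95% interval -0.52 to 0.93; edgeR adjusted p = 0.982). For *Kif5b* the log2 fold change was 0.01 ± 0.34 (SE; 95% interval -0.74 to 0.76; edgeR adjusted p = 0.999). The direction of all 3 turned with the choice of libraries. *Klc1*, the main neuronal light chain that links kinesin-1 to cargo (ENSMUSG00000021288; chromosome 12, 111758849 to 111807844, plus strand), had overlapping groups. *Klc1* stood at 768, 975 and 1027 CPM in double-labelled pools 1, 2 and 3, against 937, 1283 and 861 CPM in DiO-only pools 1, 2 and 3. Between the groups *Klc1* had a log2 fold change of -0.15 ± 0.31 (SE; 95% interval -0.83 to 0.52; edgeR adjusted p = 0.987). *Klc2* and *Klc4*, less abundant light chains, ranged from 2.67 to 17.0 CPM and from 3.75 to 27.9 CPM in double-labelled pools, and from 2.34 to 6.87 CPM and from 11.7 to 22.9 CPM in DiO-only pools. Double-labelled pool 3 was at the extreme for both, with the highest *Klc2* and the lowest *Klc4*. *Klc3* did not pass the filter on low counts. Of its 142 counts 99 lay in that same pool, and it shares 28.1% of its exon bases with *Ercc2* on the other strand.

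The kinesin-3 motors *Kif1a* (ENSMUSG00000014602; chromosome 1, 93015464 to 93101951, minus strand) and *Kif1b* carry synaptic vesicle precursors and, for a *Kif1b* isoform, mitochondria. *Kif1a* stood at 1105, 1195 and 1118 CPM in double-labelled pools 1, 2 and 3, against 1285, 1361 and 949.6 CPM in DiO-only pools 1, 2 and 3. The 3 double-labelled values fell inside the DiO-only range. For *Kif1b* the values were 913, 887 and 431 CPM in double-labelled pools 1, 2 and 3, against 617, 986 and 514 CPM in DiO-only pools 1, 2 and 3. In edgeR *Kif1a* had a log2 fold change of -0.07 ± 0.30 (SE; 95% interval -0.73 to 0.58; edgeR adjusted p = 0.987). The log2 fold change of *Kif1b* was 0.08 ± 0.38 (SE; 95% interval -0.76 to 0.91; edgeR adjusted p = 0.991). *Kif13a*, *Kif13b* and *Kif16b*, endosomal kinesin-3 motors, and *Kif1c* stood at 4.82 to 33.6 CPM in double-labelled pools and 0.729 to 17.0 CPM in DiO-only pools, and each had overlapping groups. Their log2 fold changes were all above 0, from 0.27 to 0.90, with unadjusted p of 0.145 to 0.723 in edgeR. *Kif13b* was highest in double-labelled pool 3, at 33.6 CPM, the pool that also had the highest *Klc2* and the highest oligodendrocyte sum. A link between these values of a single pool was not tested.

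Kinesin-2 is a heterotrimer of *Kif3a* with *Kif3b* or *Kif3c* and the linker *Kifap3*, and it carries plasma membrane precursors and choline acetyltransferase in axons. *Kif3c* (ENSMUSG00000020668; chromosome 12, 3365132 to 3406494, plus strand), which in rodent sensory neurons binds dynamic microtubules and is needed for regrowth after injury, had groups that did not overlap. *Kif3c* stood at 131, 134 and 128 CPM in double-labelled pools 1, 2 and 3, against 169, 209 and 206 CPM in DiO-only pools 1, 2 and 3. All 3 double-labelled pools lay below the lowest DiO-only pool. *Kif3c* had a log2 fold change of -0.57 ± 0.29 (SE; 95% interval -1.20 to 0.05; edgeR adjusted p = 0.877). This was the smallest unadjusted p among the motors (0.0697), and it did not reach the threshold. Of its exon bases, 35.3% are shared with *1110002L01Rik* on the other strand, and that gene had 72.8 to 85.9 CPM in double-labelled pools and 70.9 to 114 CPM in DiO-only pools, with overlapping groups. For *Kif3a* the values were 315, 194 and 275 CPM in double-labelled pools 1, 2 and 3, against 490.0, 329 and 262 CPM in DiO-only pools 1, 2 and 3. On the log2 scale *Kif3a* differed by -0.46 ± 0.34 (SE; 95% interval -1.20 to 0.28; edgeR adjusted p = 0.956). Double-labelled pool 2 was the lowest library for *Kif3a* and DiO-only pool 1 the highest, and without DiO-only pool 1 the log2 fold change was -0.18. *Kif3b* averaged 53.7 ± 25.2 CPM in double-labelled pools and 58.4 ± 4.75 CPM in DiO-only pools (SD, n = 3 each). For *Kif3b* the log2 fold change was -0.12 ± 0.39 (SE; 95% interval -0.96 to 0.73; edgeR adjusted p = 0.987). *Kifap3* averaged 279.9 ± 73.0 CPM in double-labelled pools and 311 ± 117 CPM in DiO-only pools (SD, n = 3 each). Between the groups *Kifap3* had a log2 fold change of -0.15 ± 0.35 (SE; 95% interval -0.91 to 0.61; edgeR adjusted p = 0.987). These 3 partners had overlapping groups.

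*Kif21a*, a kinesin-4 that restrains microtubule growth and moves along axons, was another abundant member. For *Kif21a* the values were 659.8, 409 and 445 CPM in double-labelled pools 1, 2 and 3, against 637, 767 and 530.1 CPM in DiO-only pools 1, 2 and 3. In edgeR *Kif21a* had a log2 fold change of -0.35 ± 0.32 (SE; 95% interval -1.05 to 0.34; edgeR adjusted p = 0.970). Double-labelled pools 2 and 3 lay below all DiO-only pools and pool 1 did not. Leaving out DiO-only pool 2 gave -0.21 and leaving out double-labelled pool 1 gave -0.60. Its paralogue *Kif21b* ranged from 20.1 to 47.3 CPM in double-labelled pools and from 11.0 to 31.2 CPM in DiO-only pools. *Kif17*, a dendritic motor, was at 0 counts in double-labelled pool 1 and at 3.66 and 7.64 CPM in pools 2 and 3, against 1.34 to 2.92 CPM in DiO-only pools. Over the 15 transport kinesins together, 10 were higher and 5 lower, with a median log2 fold change of 0.18. That median was -0.048 without double-labelled pool 1 and also -0.048 without DiO-only pool 3, so it had no stable direction. The summed level of the class was 3943 to 5506 CPM in double-labelled pools and 3768 to 5509 CPM in DiO-only pools.

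Cytoplasmic dynein 1 is built on the heavy chain *Dync1h1*, which holds the motor domain (ENSMUSG00000018707; chromosome 12, 110601452 to 110666945, plus strand). *Dync1h1* stood at 591, 905 and 576 CPM in double-labelled pools 1, 2 and 3, against 597, 867 and 679.6 CPM in DiO-only pools 1, 2 and 3. Pool 2 was the highest library of each group. The log2 fold change of *Dync1h1* was -0.05 ± 0.32 (SE; 95% interval -0.75 to 0.65; edgeR adjusted p = 0.993). The intermediate chains *Dync1i1* and *Dync1i2*, which bind dynactin, had overlapping groups. *Dync1i1* averaged 148 ± 19.2 CPM in double-labelled pools and 125 ± 29.9 CPM in DiO-only pools (SD, n = 3 each). *Dync1i2* averaged 110.0 ± 15.3 CPM in double-labelled pools and 97.4 ± 33.4 CPM in DiO-only pools (SD, n = 3 each). The light intermediate chains *Dync1li1* and *Dync1li2* bind the cargo adaptors. *Dync1li1* averaged 108 ± 15.6 CPM in double-labelled pools and 111 ± 7.68 CPM in DiO-only pools (SD, n = 3 each). For *Dync1li2* the values were 225, 84.5 and 89.6 CPM in double-labelled pools 1, 2 and 3, against 99.1, 156 and 96.4 CPM in DiO-only pools 1, 2 and 3. Double-labelled pool 1 was the highest library for *Dync1li2*. The log2 fold changes of these 4 chains were 0.24, 0.18, -0.03 and 0.18 (edgeR adjusted p = 0.978, 0.987, 0.996 and 0.987). Over all 12 dynein genes 7 were higher and 5 lower, with a median log2 fold change of 0.18. That median was 0.0081 without double-labelled pool 1, -0.014 without DiO-only pool 1 and -0.041 without DiO-only pool 3, so its direction turned as well.

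Among the light chains, *Dynll1* had the largest difference in means and the widest spread of the well-measured motors. *Dynll1* stood at 167, 381 and 126 CPM in double-labelled pools 1, 2 and 3, against 183, 803 and 220.5 CPM in DiO-only pools 1, 2 and 3. DiO-only pool 2 stood far above the other libraries, and the remaining values overlapped. *Dynll1* had a log2 fold change of -0.84 ± 0.58 (SE; 95% interval -2.11 to 0.43; edgeR adjusted p = 0.950). Without DiO-only pool 2 the log2 fold change was 0.17, so the direction rested on that library. For *Dynll2* the values were 267, 231 and 115 CPM in double-labelled pools 1, 2 and 3, against 184, 246 and 95.7 CPM in DiO-only pools 1, 2 and 3. On the log2 scale *Dynll2* differed by 0.22 ± 0.42 (SE; 95% interval -0.69 to 1.14; edgeR adjusted p = 0.987). *Dynlt3*, a Tctex-type chain encoded on the X chromosome, had overlapping groups. *Dynlt3* averaged 106 ± 13.4 CPM in double-labelled pools and 90.8 ± 26.3 CPM in DiO-only pools (SD, n = 3 each). For *Dynlt3* the log2 fold change was 0.22 ± 0.33 (SE; 95% interval -0.50 to 0.94; edgeR adjusted p = 0.980). The 4 *Dynlt1* copies, whose near-identical sequences are shown above, summed to 28.8, 30.7 and 29.9 CPM in double-labelled pools 1, 2 and 3, against 33.1, 36.4 and 33.2 CPM in DiO-only pools 1, 2 and 3. The sums did not overlap and were close together, where 12.9% of all tested single genes did not overlap. With 63.0 to 88.6% of the windows of these copies shared, the sums are uncertain as well. The single copies went both ways, from -1.39 for *Dynlt1f* to 0.38 for *Dynlt1a*. *Dynlt1b* was lower in every double-labelled pool, at 6.37 to 9.88 CPM, against 12.4 to 17.0 CPM in DiO-only pools, with a log2 fold change of -0.72 ± 0.60 (SE; 95% interval -2.03 to 0.59; edgeR adjusted p = 0.962).

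Dynactin activates dynein, and Lis1, encoded by *Pafah1b1*, opens the motor for assembly. *Dctn1* encodes p150Glued, the arm that binds microtubules (ENSMUSG00000031865; chromosome 6, 83165920 to 83200117, plus strand). *Dctn1* stood at 225, 426 and 512 CPM in double-labelled pools 1, 2 and 3, against 438, 364 and 378 CPM in DiO-only pools 1, 2 and 3. Double-labelled pools spread on both sides of the DiO-only pools. Between the groups *Dctn1* had a log2 fold change of -0.02 ± 0.34 (SE; 95% interval -0.77 to 0.73; edgeR adjusted p = 0.999). *Dctn2*, of the dynamitin that ties the arm to the filament (ENSMUSG00000025410; chromosome 10, 127266368 to 127281950, plus strand), stood lower in double-labelled pools with overlapping groups. *Dctn2* stood at 198, 254 and 388 CPM in double-labelled pools 1, 2 and 3, against 439, 357 and 522 CPM in DiO-only pools 1, 2 and 3. In edgeR *Dctn2* had a log2 fold change of -0.65 ± 0.33 (SE; 95% interval -1.38 to 0.08; edgeR adjusted p = 0.885). Only double-labelled pool 3 reached the DiO-only range. For *Pafah1b1* the values were 104, 194 and 123 CPM in double-labelled pools 1, 2 and 3, against 110.3, 155 and 134 CPM in DiO-only pools 1, 2 and 3. The log2 fold change of *Pafah1b1* was 0.08 ± 0.34 (SE; 95% interval -0.66 to 0.82; edgeR adjusted p = 0.987). The smaller subunits *Dctn3*, *Dctn4*, *Dctn5* and *Dctn6* had log2 fold changes of -0.03, 0.21, 0.08 and -0.05. Although single subunits varied, the 6 dynactin genes and *Pafah1b1* summed to 1444, 1500 and 1457 CPM in double-labelled pools 1, 2 and 3, against 1602, 1682 and 1581 CPM in DiO-only pools 1, 2 and 3. These sums did not overlap, with means of 1467 ± 29.5 CPM in double-labelled pools and 1621 ± 53.6 CPM in DiO-only pools (SD, n = 3 each). Of all tested single genes 12.9% did not overlap, and no such share was computed for sums. The dynein sums overlapped, at 1432 to 2040 CPM in double-labelled pools and 1491 to 2551 CPM in DiO-only pools. *Dctn2* alone differed by about as much as the sums of dynactin and Lis1. Its means were 280.1 ± 97.6 CPM in double-labelled pools and 439 ± 82.7 CPM in DiO-only pools (SD, n = 3 each). The median log2 fold change of the 7 genes was -0.02, with 3 higher and 4 lower.

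To compare levels between motors, counts were divided by the exon length of each gene and scaled to a common total (TPM, a per-length level). Levels and ranks depend on these lengths, which join the exons of all transcripts of a gene and include retained introns. By this measure 12 of the 62 genes had a mean of at least 100 TPM over the 6 pools and 18 had a mean under 1 TPM. *Dctn3*, a small dynactin subunit, came first at 643 to 964 TPM, followed by *Klc1* at 361 to 773 TPM and *Kif1a* at 223 to 367 TPM. *Kif5c*, *Kif3a* and *Kif21a* followed with means of 251, 197 and 195 TPM, and their ranges over the pools overlapped those of *Kif1a*. The dynein heavy chain had a mean of 97.7 TPM and *Dctn1* one of 139 TPM, again with ranges that overlapped. *Pafah1b1* stood at 20.7 to 39.3 TPM. *Dynll1* had a mean of 157 TPM, which is lowered by its 3890 union exon bases around a coding sequence of 270. Of the mitotic kinesins, *Kif22* had 2.62 to 13.4 TPM and *Kif20a* 3.13 to 9.58 TPM, and either was the higher in 3 of the 6 pools.

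**Figure D3:**
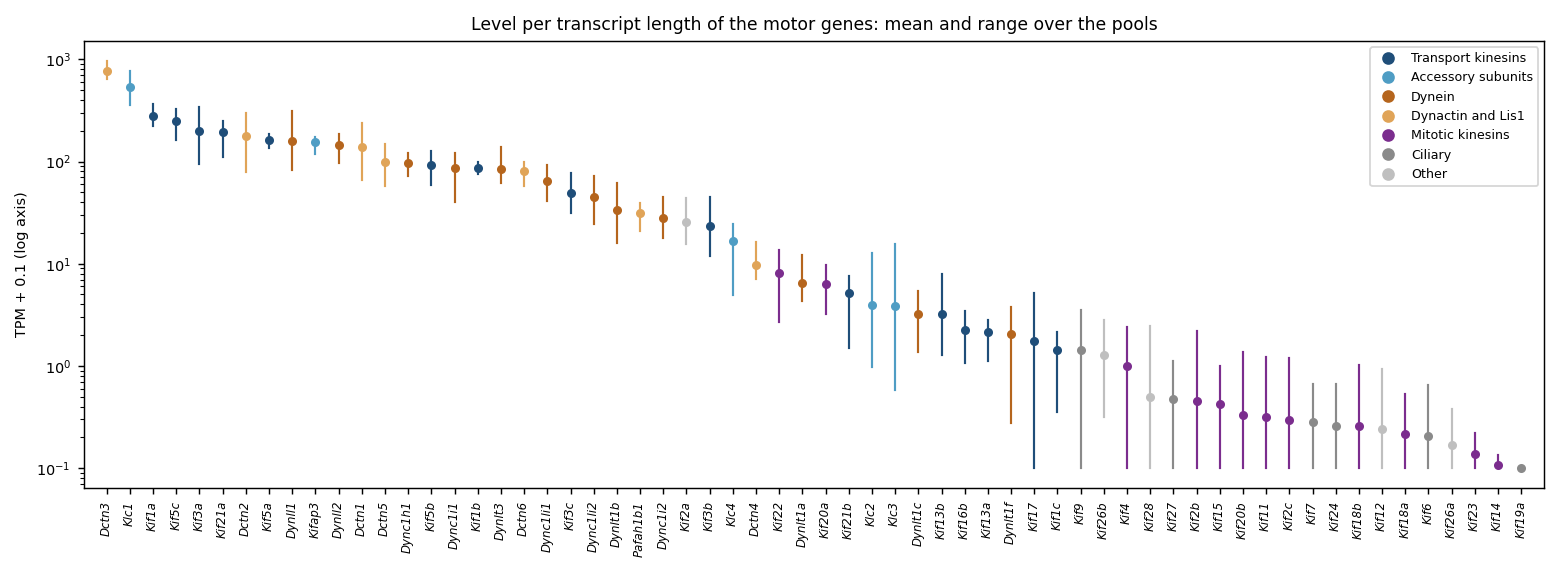
Level per exon length (TPM plus 0.1, log axis) of all 62 motor genes, ordered by their mean over the 6 pools. Points are means, vertical lines run from the lowest to the highest pool, and colours give the role; transport motors hold the upper ranks from *Dctn3* down, and most mitotic kinesins lie under 1 TPM.

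Within families, no paralogue share separated the groups. Among the kinesin-1 heavy chains, *Kif5c* made up 51.9, 44.7 and 51.8% of the level per length in double-labelled pools 1, 2 and 3, against 51.2, 43.8 and 49.3% in DiO-only pools 1, 2 and 3. The share of *Kif5a* was 33.5 ± 6.88% in double-labelled pools and 32.6 ± 5.05% in DiO-only pools, and that of *Kif5b* was 17.1 ± 2.85% in double-labelled pools and 19.3 ± 1.27% in DiO-only pools (SD, n = 3 each). Pool 2 of each group had the highest *Kif5a* share. *Kif3c* made up 66.0 ± 10.4% of *Kif3b* and *Kif3c* together in double-labelled pools and 71.7 ± 0.790% in DiO-only pools, with double-labelled pool 3 at 54.1% below all others. *Dync1i1*, the intermediate chain that neurons express strongly, held 75.7 ± 2.50% of its pair in double-labelled pools and 74.2 ± 10.7% in DiO-only pools. Shares of this kind depend on the union exon lengths, here 3572 bases for *Dync1i1* and 8280 for *Dync1i2*. In CPM the pair was closer, at means of 148 and 110.0 in double-labelled pools and 125 and 97.4 in DiO-only pools. *Klc1* held at least 93.6% of the light chains and *Kif21a* at least 96.3% of its pair in every pool. *Dynll1* differed most, with 30.6, 53.7 and 43.7% of *Dynll1* and *Dynll2* in double-labelled pools 1, 2 and 3, against 41.2, 69.7 and 61.8% in DiO-only pools 1, 2 and 3, still with overlap. In exact two-sided permutation tests on 10 such shares, the unadjusted p ran from 0.2 to 0.9 and every Benjamini-Hochberg adjusted p was 0.9, where 3 against 3 pools cannot go below an unadjusted p of 0.1.

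**Figure D4:**
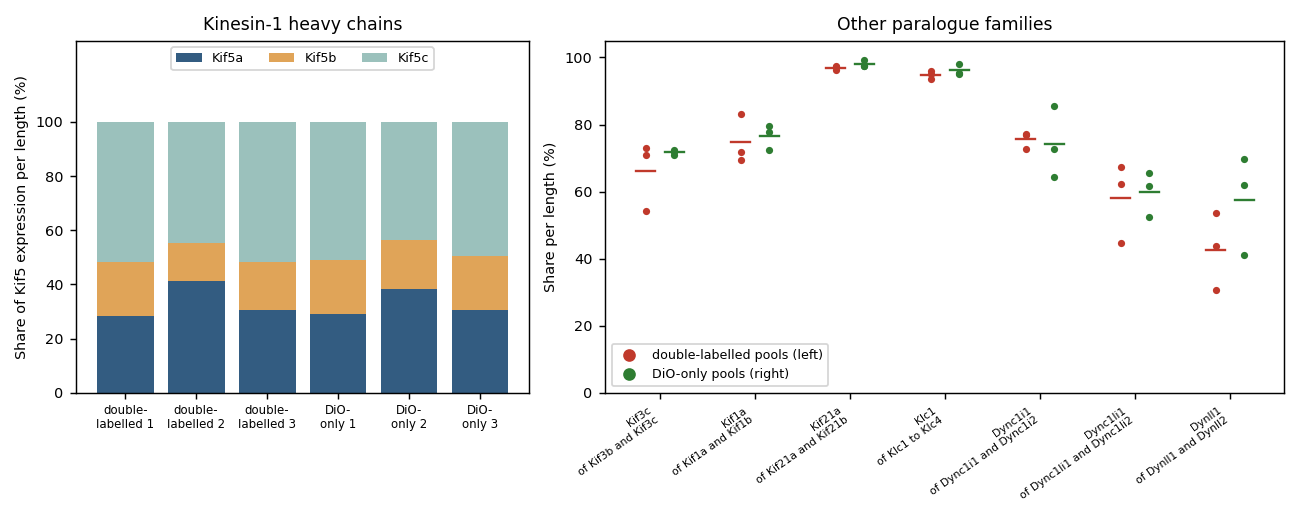
Left, stacked bars of the shares of *Kif5a*, *Kif5b* and *Kif5c* per exon length (percent) in each pool, double-labelled pools first. Right, the share of the first-named gene in 7 other families (percent), one point per pool with bars at group means, double-labelled pools in red to the left of DiO-only pools in green; each family overlaps between groups.

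Apart from *Kif20a* and *Kif22*, the mitotic kinesins were near the limit of detection in these pools. Of 12, only *Kif4*, *Kif15*, *Kif20a* and *Kif22* passed the filter on low counts, and 2 of the 12 had a count in every pool. *Kif20a*, of cytokinesis, and *Kif22*, a chromosome motor, held 845 of the 1054 counts of the whole group over the 6 libraries. *Kif20a* stood at 20.5, 23.8 and 4.96 CPM in double-labelled pools 1, 2 and 3, against 5.40, 14.7 and 10.3 CPM in DiO-only pools 1, 2 and 3. For *Kif22* the values were 8.42, 24.9 and 21.4 CPM in double-labelled pools 1, 2 and 3, against 5.11, 27.4 and 19.9 CPM in DiO-only pools 1, 2 and 3. Both had overlapping groups. *Kif20a* shares 29.3% of its exon bases with *Cdc23* on the other strand, and without strand reads of the pair cannot be told apart, while *Kif22* shares 2.0% with another gene. *Kif4*, a chromosome-bound kinesin, had 4, 0 and 13 counts in double-labelled pools 1, 2 and 3, against 35, 9 and 11 counts in DiO-only pools 1, 2 and 3. Scaled to CPM its groups did not overlap, at 0 to 1.74 CPM in double-labelled pools and 1.89 to 5.11 CPM in DiO-only pools, with a log2 fold change of -1.85 ± 1.42 (SE; 95% interval -4.96 to 1.26; edgeR adjusted p = 0.957). It shares 15.1% of its exon bases with *Pdzd11* on the other strand. The spindle motor *Kif11* had 0, 13 and 0 counts in double-labelled pools 1, 2 and 3, against 2, 0 and 1 counts in DiO-only pools 1, 2 and 3. The 10 mitotic kinesins other than *Kif20a* and *Kif22* had 209 counts in all. Markers of dividing cells were scarce too. *Birc5* held 355 of the 582 counts of the 10 markers over the 6 libraries, followed by *Cdk1* with 99, *Top2a* with 45 and *Cenpf* with 41. *Mki67* had 5 counts, *Plk1* 1 count and *Ccnb1* 1 count. The counts of *Cdk1* lay mostly in double-labelled pool 3, with 49, and DiO-only pool 1, with 43. In each pool between 4 and 6 of the 12 mitotic kinesins had a count in double-labelled pools, against 10, 4 and 10 in DiO-only pools 1, 2 and 3. DiO-only pools 1 and 3 also had more genes detected, 21399 and 22118, against 15657 to 16467 in double-labelled pools and 17229 in DiO-only pool 2.

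Of the ciliary and centriolar kinesins, *Kif9* alone passed the filter, at 0 to 5.86 CPM in double-labelled pools and 1.34 to 5.33 CPM in DiO-only pools. *Kif19a*, which limits the length of motile cilia, had 0 counts in every library, which allows at most 3 counts in each, or 0.402 to 1.10 CPM. *Kif6*, *Kif7*, *Kif24* and *Kif27* had 9 to 24 counts each over all libraries. In the remaining group, *Kif2a*, a kinesin-13 that takes microtubules apart and limits collateral branches of axons, stood at 37.1 to 95.5 CPM in double-labelled pools and 59.96 to 100.7 CPM in DiO-only pools, with overlapping groups. *Kif26b* stood at 1.83 to 10.3 CPM in double-labelled pools and 6.53 to 15.9 CPM in DiO-only pools. *Kif12*, *Kif26a* and *Kif28* were not tested, with 5 to 23 counts over all libraries. In total, 17 of the 62 genes did not pass the filter, namely 8 mitotic kinesins, 5 ciliary kinesins, 3 others and *Klc3*.

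For the partners that couple motors to cargo the median size of the log2 fold change was 0.40, against 0.22 for the tested motors and 0.42 for all tested genes. Of 38 tested adaptors and regulators, 21 were higher and 17 lower in double-labelled pools, with a median log2 fold change of 0.13, 3 at an unadjusted p under 0.05 (5.81% of all tested genes) and 0 at an adjusted p under 0.05 in edgeR. Groups did not overlap for 4, of which 3 were higher (*Rilp*, *Snph* and *Hap1*) and 1 lower (*Ndel1*), against 12.9% of all tested genes. *Ndel1* encodes a partner of Lis1 that regulates dynein. *Ndel1* stood at 53.2, 84.9 and 81.3 CPM in double-labelled pools 1, 2 and 3, against 142, 123 and 152 CPM in DiO-only pools 1, 2 and 3. All double-labelled pools lay below all DiO-only pools. *Ndel1* had a log2 fold change of -0.93 ± 0.32 (SE; 95% interval -1.63 to -0.22; edgeR adjusted p = 0.692). *Snph*, of syntaphilin, which anchors mitochondria on axonal microtubules, was on the other side. *Snph* stood at 148, 195 and 244 CPM in double-labelled pools 1, 2 and 3, against 139, 103 and 114 CPM in DiO-only pools 1, 2 and 3. On the log2 scale *Snph* differed by 0.72 ± 0.32 (SE; 95% interval 0.03 to 1.41; edgeR adjusted p = 0.830). *Rilp*, a Rab7 effector that recruits dynein to late endosomes and lysosomes, had the largest value of the list. *Rilp* stood at 17.7, 9.15 and 26.1 CPM in double-labelled pools 1, 2 and 3, against 4.67, 3.34 and 1.37 CPM in DiO-only pools 1, 2 and 3. For *Rilp* the log2 fold change was 2.49 ± 0.75 (SE; 95% interval 0.84 to 4.15; edgeR adjusted p = 0.617). *Zfyve27*, of protrudin, which loads endosomes onto kinesin-1, had overlapping groups at 62.6 to 145 CPM in double-labelled pools and 53.7 to 69.2 CPM in DiO-only pools, with a log2 fold change of 0.69 ± 0.37 (SE; 95% interval -0.12 to 1.50; edgeR adjusted p = 0.885). Without double-labelled pool 3 that value was 0.30. The mitochondrial adaptors *Trak1*, *Trak2*, *Rhot1* and *Rhot2* had log2 fold changes of 0.40, 0.25, -0.19 and 0.15, and *Mapk8ip3*, which links injury signalling kinases to kinesin-1 and dynein, had one of -0.10. None of these 5 was at an unadjusted p under 0.05. Oligodendrocyte markers were higher in the same double-labelled pools, as given above, and their part in the adaptor values was not tested.

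**Figure D5:**
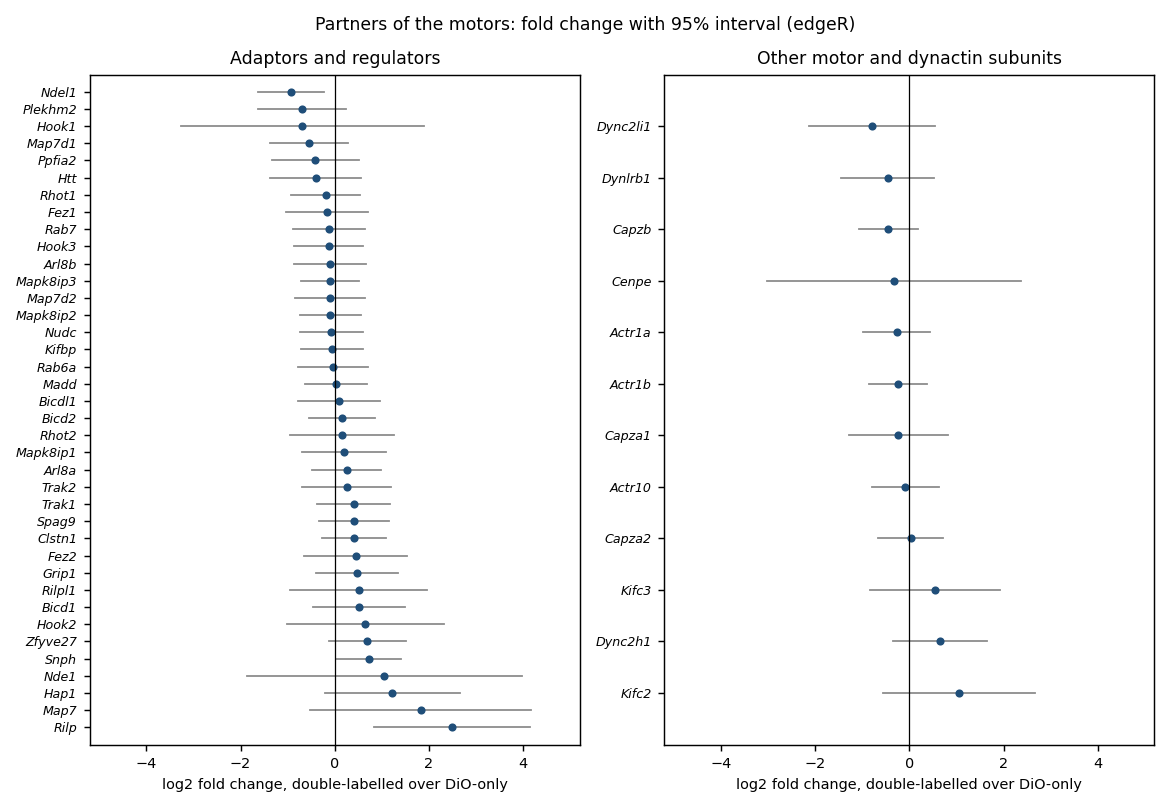
The log2 fold change, double-labelled over DiO-only pools, with its 95% interval (edgeR) for tested adaptors and regulators on the left and for motor and dynactin subunits outside the symbol rule on the right, each ordered by value. The intervals of *Ndel1*, *Snph* and *Rilp* leave out 0 before adjustment, and those of the other genes drawn include it.

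Further motor and dynactin subunits that the symbols above leave out were examined in the same way. Of 14, 12 were tested, 4 higher and 8 lower, with a median log2 fold change of -0.24, 0 at an unadjusted p under 0.05 and 3 with groups that did not overlap, all lower. Over all tested genes 12.9% did not overlap and 7.07% were lower without overlap. *Capzb*, the beta subunit of the capping protein at the end of the dynactin filament, stood at 377, 284 and 359.5 CPM in double-labelled pools 1, 2 and 3, against 500.2, 443 and 444 CPM in DiO-only pools 1, 2 and 3, with a log2 fold change of -0.44 ± 0.28 (SE; 95% interval -1.07 to 0.18; edgeR adjusted p = 0.936). *Actr1b*, an actin-related protein of the filament, stood at 201 to 265 CPM in double-labelled pools and 269.8 to 280.3 CPM in DiO-only pools. The dynein 2 subunits of cilia, *Dync2h1* and *Dync2li1*, had log2 fold changes of 0.65 and -0.79, of opposite sign (edgeR adjusted p = 0.954 and 0.957). The value of *Dync2h1* was 0.37 without double-labelled pool 3. *Kifc2*, a minus-end kinesin, ranged from 24.5 to 187 CPM in double-labelled pools and from 10.0 to 70.3 CPM in DiO-only pools, with a log2 fold change of 1.06 ± 0.73 (SE; 95% interval -0.55 to 2.66; edgeR adjusted p = 0.950). The highest value was that of double-labelled pool 3, and without that pool the log2 fold change was -0.032. The light chain *Dynlrb1* stood highest in DiO-only pool 2, at 738 CPM, the library in which *Dynll1* was highest as well.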

How the data were processed

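Polyadenylated RNA of 6 pools of picked motor neurons was amplified with the SMART-Seq HT kit over 20 PCR cycles, per the labels' protocols. FastQC, HISAT2, HTSeq and the mm10 build are named in the submitters' processing notes, and whether counting used strand is not given in the sources used here. Raw read counts per gene make up the table the authors deposited, with no normalisation. Values were used as they stand. The counts carry no molecular identifiers, so floors cover counting error only.

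From these counts, genes were filtered with filterByExpr by group, which left 12954 genes with 99.2% of all counts, and scaled with TMM. Double-labelled and DiO-only pools were tested in edgeR 4.0.16 (robust quasi-likelihood) on all 6 pools, with Benjamini-Hochberg adjustment over all tested genes. The standard error is the size of the log2 fold change divided by the square root of F. DESeq2 1.42.0, limma voom 3.58.1, other scalings and filters, a replicate block and leaving out each pool were the alternatives. The script was tested on simulated data. Levels per length used union exons of GENCODE M21, which include retained introns and so lower the level of genes such as *Dynll1*. Sequences were compared with Biopython 1.88.

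The motor genes and the lists of partners and markers were chosen with earlier results of these data known. Test values are given for 22 set motor genes, for any other motor gene with an unadjusted p under 0.05 or groups that did not overlap, and for the up to 4 partners and 4 further subunits of smallest p. Other genes were chosen for naming after their values were seen.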

Additional observations from a re-analysis of the deposited data

How the results depend on the processing

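The count of 0 motor genes at an adjusted p under 0.05 held under all 13 alternatives. Over all genes edgeR called 79 of 28513 genes with no filter on low counts and 23 of 12954 with the replicate block, against 0 of 12954. DESeq2's test called 75 of the 28406 genes with a p-value. It had no such filter but its own default filter on mean count at adjustment, so the test and the filter changed together. At an unadjusted p under 0.05 there was 1 of 61 motor genes with no filter (*Dynll1*; 5.15% of all genes), 1 of 45 with limma voom and quality weights, which changed together (*Dctn2*; 7.63%), 3 of 45 under the replicate block (*Dctn2*, *Dynll1* and *Kif3c*; 8.23%) and 0 to 2 when 1 pool was left out (3.35 to 9.24%). The median log2 fold change of the transport kinesins was 0.084 with at least 10 counts in 5 libraries, 0.058 with limma voom and 0.052 with the replicate block, and it spanned -0.048 to 0.32 when 1 pool was left out. That of the dynein genes spanned -0.041 to 0.22 and that of dynactin and Lis1 -0.32 to 0.13 when 1 pool was left out.

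Of 415 values of the 32 named genes under the alternatives, 378 kept their direction and their side of the threshold, 37 turned direction and 0 newly passed the threshold. With total counts only, *Dync1li1* was at 0.0021 and *Dctn1* at 0.016. *Kif5b* was at -0.011 with no filter, -0.15 with limma voom and -0.028 under the replicate block. Under limma voom *Kifap3* was at 0.12, *Dync1h1* at 0.15 and *Dync1li2* at -0.072. Leaving out 1 pool gave log2 fold changes of -0.28 to 0.25 for *Dctn1*, -0.32 to 0.12 for *Dync1h1*, -0.0936 to 0.35 for *Dync1i2*, -0.11 to 0.0613 for *Dync1li1*, -0.44 to 0.45 for *Dync1li2* and -1.49 to 0.17 for *Dynll1*. It gave -0.0855 to 0.55 for *Dynll2*, -0.23 to 0.0314 for *Kif1a*, -0.12 to 0.40 for *Kif1b*, -0.58 to 0.0601 for *Kif3b*, -0.0476 to 0.41 for *Kif5a* and -0.35 to 0.15 for *Kif5b*. It also gave -0.0499 to 0.38 for *Kif5c*, -0.41 to 0.21 for *Kifap3*, -0.0324 to 1.56 for *Kifc2*, -0.28 to 0.0426 for *Klc1* and -0.25 to 0.25 for *Pafah1b1*. Those of *Dync1i1* and *Dynlt3* kept their direction at 0.064 to 0.39 and 0.050 to 0.48. The cause of these turns was not tested beyond the pools left out.

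Pools with the same number are not stated to share an animal or day, although the protocol speaks of batches of libraries. Their deviations from the group means correlated at 0.07, 0.23 and 0.20, and each pool correlated best with its own number, which is a hint from the data only. With 3 pools a group and a common biological coefficient of variation of 0.587, precision was lowest for the motors below 50 CPM.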
